A study of Homo sapiens with 2 samples.

Results

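Sequencing of RNA from A549 cells gave, beside the known genes, many spliced transcripts at places where the annotation used by the submitters lists nothing. A549 is a human lung adenocarcinoma cell line (non-small cell lung cancer in the labels). Cells carrying a short hairpin RNA against LacZ, a bacterial gene, gave the library called control here. The other library came from cells carrying a hairpin against PSPC1, a protein of paraspeckles (nuclear bodies built on a long non-coding RNA), and is called the knockdown. Each group holds 1 library, so the groups could not be tested against each other, p-values are absent, and differences below have no replicate check. The labels give neither the hairpin sequences nor whether the cells were a pool or a clone.

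The transcripts described were chosen in each deposited file by annotation and structure only: assembled from the reads rather than taken from the annotation, with a strand, with 2 or more exons, and overlapping no annotated transcript on either strand. There were 620 of them in the control file, of 83113 transcripts in all, and 635 in the knockdown file, of 90355. They made up 6.65% and 6.78% of the spliced, stranded assembled transcripts, since 8698 and 8731 others overlapped annotated genes. Their share of the summed FPKM times length was 0.114% and 0.120%. FPKM is the number of fragments per kilobase of exon, divided by the size of the library. Transcripts of both files that overlapped on the same strand were joined into 725 loci.

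Most human DNA lies outside protein-coding genes, and part of it is transcribed into long non-coding RNAs. These are spliced and capped much like messenger RNAs, but are as a rule shorter in exon number and present at lower levels. Many start at the promoter of a protein-coding gene and run in the opposite direction, because human promoters, above all those rich in CpG, often fire both ways. Others are transcripts of duplicated genes, pseudogenes or alternative first exons of known genes.

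In 231 of the 696 loci that could be placed between named genes, at least 1 intron had the length and the place in the gene order of an intron in GENCODE 29, a fuller annotation on the GRCh38 build. The join below marks which exons are brought together at the loci on which the results turn. Each line gives the last 30 bases of the upstream exon in lower case and the first 30 of the downstream exon in capitals, 5′ to 3′, from the GENCODE 29 transcript whose intron matched. The coordinates after each block are those of the introns in the deposited files, which name no build and whose scaffold names and gene positions are those of GRCh37.

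LINC01273, intron of 3263 bases: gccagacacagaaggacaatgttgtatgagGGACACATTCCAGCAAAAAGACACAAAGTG
LINC01186, intron of 1096 bases: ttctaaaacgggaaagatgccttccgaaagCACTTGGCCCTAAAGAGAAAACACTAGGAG
LNCAROD, intron of 3068 bases: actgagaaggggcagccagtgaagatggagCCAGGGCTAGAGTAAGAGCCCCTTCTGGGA
LINP1, intron of 728 bases: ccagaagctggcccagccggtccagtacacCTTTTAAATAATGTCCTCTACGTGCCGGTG
IGFL2-AS1, intron of 4397 bases: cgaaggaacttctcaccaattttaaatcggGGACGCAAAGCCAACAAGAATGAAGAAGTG
SUCLG2-AS1, intron of 14713 bases: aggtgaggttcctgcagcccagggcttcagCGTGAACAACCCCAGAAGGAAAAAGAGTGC
SPRY4-AS1, intron of 20045 bases: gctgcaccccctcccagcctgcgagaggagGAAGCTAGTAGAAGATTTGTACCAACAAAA
AC002066.1, intron of 16450 bases: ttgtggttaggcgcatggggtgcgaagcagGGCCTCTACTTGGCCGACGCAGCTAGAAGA
AL355338.1, intron of 1905 bases: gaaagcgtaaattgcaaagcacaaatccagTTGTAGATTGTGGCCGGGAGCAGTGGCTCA
The introns lie at chr20:48789555-48792817 on the plus strand (LINC01273), chrX:46185890-46186985 on the minus strand (LINC01186), chr10:54211278-54214345 on the minus strand (LNCAROD) and chr10:6779591-6780318 on the plus strand (LINP1). Those of IGFL2-AS1, at chr19:46701700-46706096, AC002066.1, at chr7:116122958-116139407, and AL355338.1, at chr13:100738982-100740886, are on the minus strand. Those of SUCLG2-AS1, at chr3:67705527-67720239, and SPRY4-AS1, at chr5:141704936-141724980, are on the plus strand.

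Over the exons of PSPC1 itself the level was 18.8 FPKM with the control hairpin and 10.5 with the PSPC1 hairpin, which is 56.1% of the control. The deposited intervals gave a depth near 56200000 fragments for the control library and 57100000 for the knockdown library. The epithelial keratins KRT8, KRT18 and KRT7 stood between 572 and 1385 FPKM in both libraries, while the 10 markers of leukocytes, fibroblasts and endothelium stood at 0.305 FPKM or lower. The alveolar markers SFTPC, NKX2-1 and NAPSA were at 0.341 FPKM or lower, and EPCAM at 3.87 and 2.85.

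The transcripts were short in exon number. In the control 372 of 620 had 2 exons and in the knockdown 423 of 635, against a median of 8 exons among the assembled transcripts that overlapped genes. The longest chains had 12 exons in the control and 17 in the knockdown. Their median length was 1376 and 1441 bases of exon, and their median span on the genome 6808 and 5528 bases. Introns had a median of 2411 bases in the control and 1923 in the knockdown, against 1794 and 1781 in gene-overlapping transcripts, and the shortest had 51 bases in both. Introns under 100 bases made up 2.59% and 3.92% of them, against 3.82% and 3.96% among gene-overlapping transcripts. The strands were even, with 311 plus and 309 minus in the control and 319 and 316 in the knockdown. Of these, 30 and 24 lay on scaffolds with names that begin with GL, outside the assembled chromosomes.

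**Figure D1:**
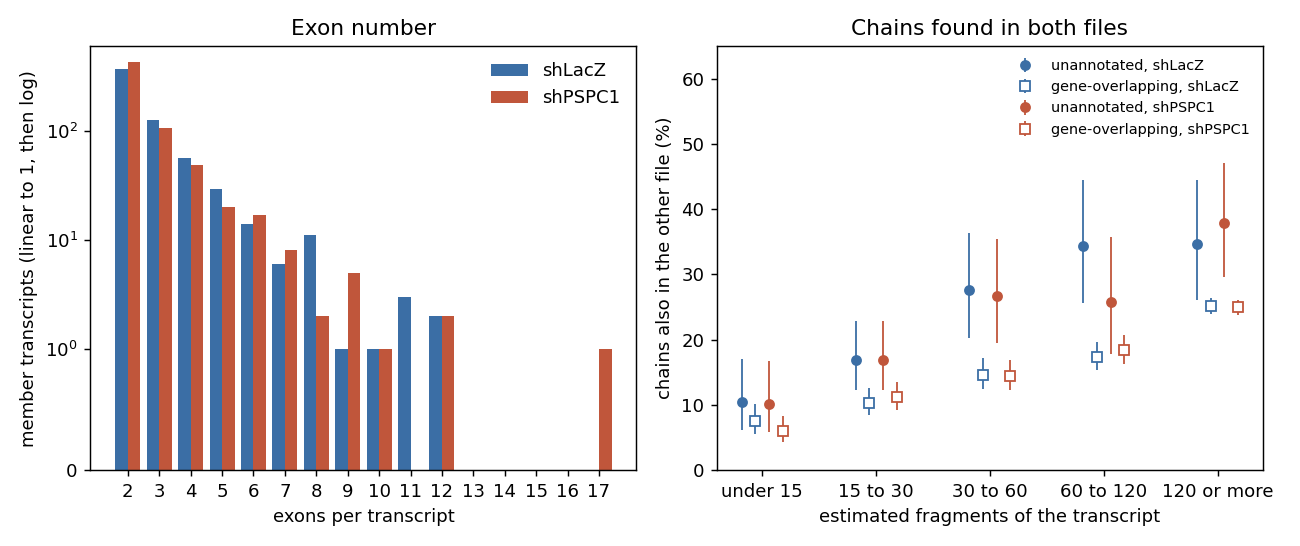
Left, number of transcripts at unannotated loci (vertical axis, linear up to 1 and logarithmic above) by exon number, for the control (shLacZ) and knockdown (shPSPC1) files. Right, share of intron chains also found in the other file, by estimated fragments of the transcript, for unannotated and gene-overlapping chains, with 95% Wilson intervals: the share rose from about 10.5% under 15 fragments to 34.7% at 120 or more in the control.

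The level of these transcripts was low. The median was 0.461 (control) and 0.453 FPKM (knockdown), against 1.05 and 1.04 for spliced assembled transcripts that overlapped genes. Only 132 and 128 reached 1 FPKM, and 17 and 26 reached 10. Transcripts listed at 0 numbered 4 and 3.

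The same chain of introns was assembled in both files in 143 cases. That was 23.1% of the control chains (95% Wilson interval 19.9 to 26.5) and 22.5% of the knockdown chains (19.4 to 25.9). Chains that overlapped genes recurred at a rate of 20.6% and 20.5%, with 1791 in both files. Recurrence went with the number of fragments: 10.5% of control chains with under 15 estimated fragments were also in the knockdown file, 16.9% with 15 to 30, 27.6% with 30 to 60 and 34.7% with 120 or more. At matched fragment numbers between 30 and 60, 14.7% of gene-overlapping control chains recurred, whose intervals (12.5 to 17.1) do not overlap those of the unannotated ones (20.3 to 36.3). The unannotated share was the higher in every fragment range of both files. The intervals did overlap under 15 fragments and at 15 to 30 in both files. They also overlapped at 120 or more in the control and at 60 to 120 in the knockdown. Exon number was not matched in these comparisons, and the intervals describe chains within 1 library. Of the unannotated chains with 6 or more exons only 1 recurred, of 38 in the control and 36 in the knockdown, 2.63% and 2.78%, against 18.4% of gene-overlapping chains of that size in either file. With 3 exons 18.4% and 21.5% recurred, against 26.98% and 24.5%, and with 2 exons 27.7% and 24.3%, against 26.9% and 27.1%.

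Single introns recurred more often than whole chains. Of 967 introns in control transcripts and 943 in knockdown transcripts, 395 were in both, 40.8% and 41.9%. A transcript that shared at least 1 intron with the other file was found in 46.8% of the control and 45.7% of the knockdown set. At the level of loci, 228 of 725 held such transcripts from both files and 129 held an identical chain. Of the 241 loci with a spliced transcript in the control only, 155 were still covered by some assembled transcript in the knockdown. The reverse held for 161 of 256. In all, 544 loci (75%) had a level above 0 in both libraries. A chain missing from a file was not assembled there, which does not show that its RNA was absent.

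The 10 loci of highest level were nearly all compact and carried no intron found in GENCODE 29. The highest with a chain in both files lay at chr19:12754024-12754775 on the minus strand, 2546 bases downstream of MAN2B1, a lysosomal mannosidase gene. Its level over 589 exon bases was 278 FPKM (control) and 325 (knockdown), while MAN2B1 stood at 9.81 and 9.61. The shared chain itself had 64.2 and 66.4 FPKM, and the rest came from other assembled transcripts over the same exons. A locus at chr5:168043376-168044051, 36761 bases from PANK3 (a pantothenate kinase gene, at 20.3 and 22.4 FPKM), had 232 and 277 FPKM. At chr10:36811775-36813339, 601445 bases from ANKRD30A (3.84 and 4.02 FPKM), the levels were 99.95 and 129 FPKM, and at chr3:68684834-68686154, downstream of TAFA1 (listed at 0 in both), they were 96.8 and 116. At chrX:110863177-110864743, 59602 bases from ALG13 (2.7 and 2.69 FPKM), they were 41.6 and 47.1. A locus at chr17:47500855-47502323, 8612 bases upstream of PHB1 (prohibitin, an inner mitochondrial membrane scaffold, at 118 and 125 FPKM), had 34.7 and 43.3 FPKM. At chr7:56356806-56357199 the level was 59.3 and 61.2 FPKM, and at chr6:51274466-51275203, 204941 bases from PKHD1 (0.0173 FPKM or lower), it was 40.5 and 37.2. These 8 differed between the libraries by less than the fold limit used below. Their levels sum every assembled transcript over the exons. Apart from the locus near MAN2B1, each held its spliced transcripts in 1 file only. Those made up 44.1 of the 277 FPKM near PANK3 and all of the 43.3 near PHB1, both in the knockdown. Whether the reads of these 8 loci could also be placed elsewhere in the genome was not tested.

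The other 2 of the 10 were very short, and FPKM and fragments parted there. At chr8:81471036-81471344, 36425 bases downstream of ZBTB10 (3.92 and 3.68 FPKM), the level was 189 (control) and 1200 FPKM (knockdown), over 197 exon bases. The control held only a strandless piece there and the knockdown a spliced transcript little longer than a fragment. The estimated fragments were 1184 and 2390, so the ratio of fragments was well below that of FPKM. At chr9:15055505-15055766 the level was 119 and 375 FPKM over 165 exon bases, while the fragments were 664 and 713. Of the 31 loci with a mean level of 10 FPKM or more, 29 had no more than 2 exons, 2 had an intron in GENCODE 29 and 7 had a chain in both files. Of the chains in 1 file only, the highest in the control were at chr5:72804765-72805040 near BTF3 (38.0 FPKM), the locus on chromosome X above (30.1) and chr19:14181139-14181545 (27.1). In the knockdown they were the loci on chromosomes 8 and 9 above (1039 and 251 FPKM) and a 3-exon transcript on the scaffold GL000195.1 (46.5 FPKM).

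Loci with a chain in both files were ranked by the most exons of any chain in either file. The top 5 were in 3 cases matches to duplicated genes or pseudogenes. At chr9:38424536-38469947, 91 bases head to head with IGFBPL1, a locus of up to 8 exons matched 4 introns of AL390726.6, a transcribed pseudogene. It had 0.414 and 0.369 FPKM, against 2.9 and 3.08 for IGFBPL1, and its shared chain had 5 exons. At chr9:67328440-67340075 a locus of up to 7 exons matched BMS1P10, a pseudogene of the ribosome assembly factor BMS1, with 5.58 and 6.12 FPKM. At chr1:121090533-121135190 a chain of 7 exons shared by both files matched 5 introns of SRGAP2C, a human-specific duplicate of the SRGAP2 gene, with 4.77 and 4.71 FPKM. LINC01515, at chr10:67330236-67457915, had up to 6 exons and 1.04 and 1.16 FPKM. A locus of up to 6 exons at chr5:6765369-6793669 had 0.950 and 0.823 FPKM. The chains shared by both files had 4 exons at BMS1P10 and LINC01515 and 3 at this locus. Reads of near-identical copies can be placed on either copy, so the levels at SRGAP2C and BMS1P10 are uncertain.

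Of the loci with a shared chain, the longest ran over 313211 bases at chr16:63339055-63652265, on so little RNA that it rested on 30 and 25 estimated fragments (0.362 and 0.270 FPKM). A locus of 223080 bases at chr9:22124141-22347220 began 3044 bases downstream of CDKN2B-AS1, the non-coding gene of the CDKN2A and CDKN2B region. It had 3.94 and 3.85 FPKM, on 7098 and 7080 fragments, while CDKN2B-AS1 itself was listed at 0 in both libraries. In the knockdown a share of 0.286 of those fragments belonged to transcripts that also overlap annotated genes. The spliced transcripts alone held 6947 and 5053 fragments. The shared chain went from 5.12 to 2.78 FPKM, with 19881 exon bases in the control and 31718 in the knockdown. A locus of 217976 bases at chr5:85648559-85866534, head to head with COX7C at 47249 bases, had 0.708 and 0.736 FPKM, against 179 and 261 for COX7C, a subunit of cytochrome c oxidase. A locus of 171521 bases at chrX:10957787-11129307 started 98 bases from HCCS and had 0.612 and 0.657 FPKM, against 16.1 and 16.8 for HCCS. In all 4 the counting intervals of the locus levels overlapped between the 2 libraries, and the fifth, LINC01515, is given above.

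Names could be given to part of the loci. Of 231 with a matching GENCODE 29 intron, 157 were of long non-coding types, 100 of them lincRNA and 41 antisense, 47 were transcripts of protein-coding genes and 27 were pseudogenes. Loci with 3 or more exons matched in 58.4% of the placed cases, those with 2 exons in 22.4%, and those of 10 FPKM or more in 6.45%. Loci with a chain in both files matched in 41.1%, those with a chain in 1 file in 31.5%. Of the 47 matches to protein-coding genes, 22 were to the nearest annotated gene itself, 11 upstream of it and 11 downstream, so that GENCODE 29 lists them as exons of the known gene.

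Several of the matches are long non-coding RNAs with a record of their own. LINP1, known for a part in DNA end joining, had levels of 2.70 and 2.15 FPKM (control first here and below), on 1053 and 836 fragments. LNCAROD, which lies 95532 bases from the Wnt inhibitor gene DKK1, had 1.98 and 2.41 FPKM, while DKK1 stood at 46.8 and 49.5. LINC01836, 11505 bases upstream of the splicing repressor gene PTBP1, had 2.28 and 3.10. A locus that matched 1 intron of HAND2-AS1, the antisense partner of a heart and limb transcription factor gene, had 0.572 and 0.496. This locus lay 67079 bases downstream of HAND2-AS1 as annotated by the submitters, on the same strand. That annotated gene was itself listed at 0 in both libraries. RALY-AS1 had 0.889 and 0.817, KCTD21-AS1 0.924 and 1.18, and ERICH6-AS1 0.916 and 1.06. MEG8, a transcript of the imprinted cluster on chromosome 14, had 0.398 and 0.850, on 26.98 and 62.5 fragments. IGFL2-AS1, the highest of the named non-coding loci, had 7.31 and 14.3 FPKM, on 667 and 1328 fragments, a log2 ratio of 0.96 that lay just under the limit. None of these passed the limit, unlike LINC01186 and LINC01273, described below. The loci of this paragraph were picked by name after their values were seen.

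**Figure D2:**
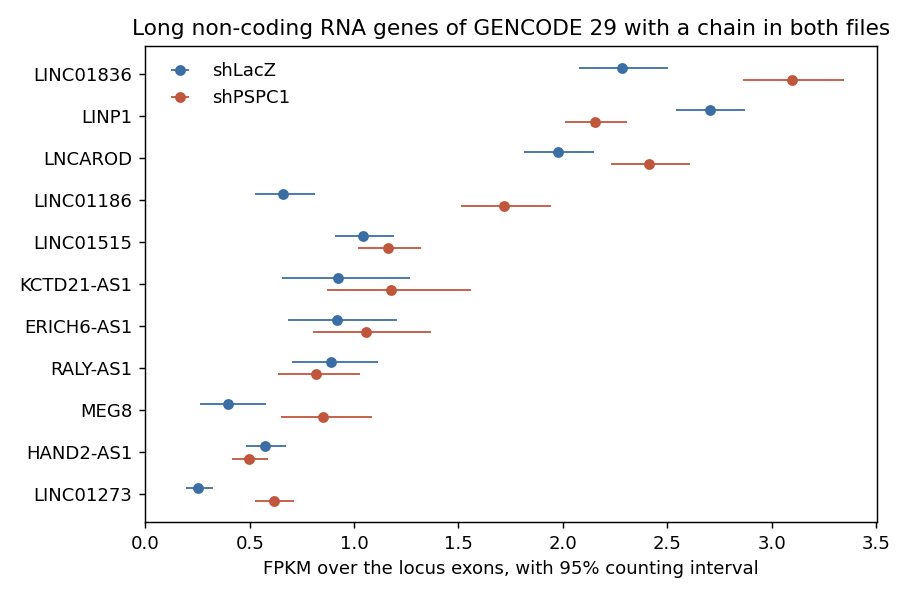
Level over the locus exons (FPKM, horizontal axis) of the 11 loci with a chain in both files that match a named long non-coding RNA gene of GENCODE 29, in the control (shLacZ) and the knockdown (shPSPC1), with 95% counting intervals. The intervals of LINC01186 and LINC01273 lie far apart, those of LINC01515, KCTD21-AS1, ERICH6-AS1, RALY-AS1 and HAND2-AS1 overlap.

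Position relative to the nearest annotated gene was uneven. Within 5000 bases, 142 of the 725 loci lay head to head with the gene (on the opposite strand, starting at its start), 73 downstream on the same strand, 52 upstream on the same strand and 29 tail to tail. Another 412 lay farther away, at a median distance of 29295 bases, and 17 lay on sequences with no annotated gene. Within 1000 bases the head-to-head class had 108 loci, against 9 tail to tail, 21 downstream and 22 upstream. In that class the median gap between locus and gene was 190 bases, 66 of 108 gaps were 250 bases or shorter, and the shortest was 21.

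**Figure D3:**
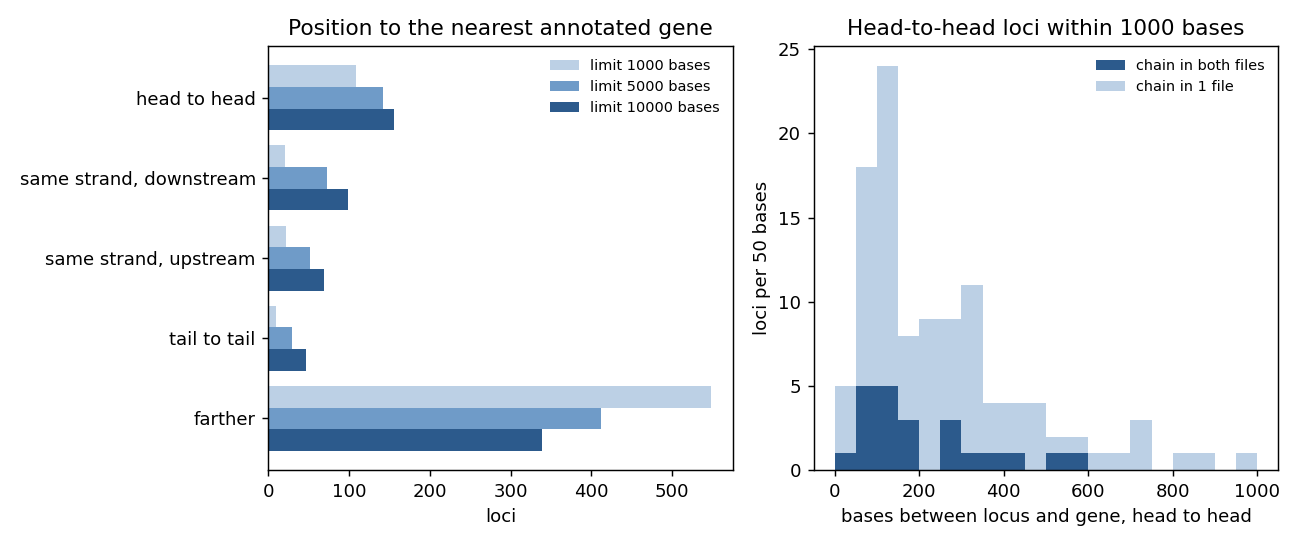
Left, number of loci by position to the nearest annotated gene, with the limit for "near" set at 1000, 5000 and 10000 bases. Right, gap in bases between locus and gene for the 108 head-to-head loci within 1000 bases, with the 22 that hold a chain in both files in dark blue. Most gaps are short, with a median of 190 bases.

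The promoters of these genes have the composition of CpG-rich promoters. The 250 bases upstream of the start of PCCA, a mitochondrial propionyl-CoA carboxylase subunit gene whose gap to its locus is 49 bases, and of HCCS, a heme lyase gene, are shown as the stretch into which the start of the paired transcript falls if the gene starts as in the deposited files. They come from RefSeq on GRCh38.p14, plus strand, chr13:100088843-100089092 and chrX:11111082-11111331, and capitals mark GC boxes (GGGCGG, searched on both strands).
PCCA: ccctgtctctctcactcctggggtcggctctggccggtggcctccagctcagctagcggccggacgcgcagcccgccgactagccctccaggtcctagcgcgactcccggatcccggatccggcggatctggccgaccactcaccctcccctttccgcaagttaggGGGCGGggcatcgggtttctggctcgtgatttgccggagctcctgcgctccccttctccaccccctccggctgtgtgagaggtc
HCCS: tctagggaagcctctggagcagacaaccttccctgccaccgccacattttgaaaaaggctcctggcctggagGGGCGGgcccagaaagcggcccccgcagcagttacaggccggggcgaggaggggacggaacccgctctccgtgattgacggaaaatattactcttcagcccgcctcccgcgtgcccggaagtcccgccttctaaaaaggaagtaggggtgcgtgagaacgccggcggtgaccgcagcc
Each holds 1 GC box, with 22 and 20 CpG. Of the 108 nearest genes, 83 had a promoter in the RefSeq table. A GC box stood in 84.3% of these 83, against 42.3% of all 27305 promoters and 68.1% of those of 9072 genes that reached 1 FPKM in each library. A TATA box (TATAAA, both strands) stood in 1.2%, 11.1% and 5.2%, and a CCAAT box (CCAAT, both strands) in 38.6%, 33.0% and 36.1%. The median number of CpG was 25, 11 and 21. These are matches of letters and not shown binding sites.

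In the head-to-head pairs the known gene was the stronger partner. For the 22 pairs with a chain in both files, the median level of the gene was 10.5 and 10.4 FPKM in the 2 libraries, and that of the locus 0.928 and 1.01. The gene was higher than the locus in both libraries in 21 of 22 pairs. The exception was LINC03014, a non-coding gene at 0.107 and 0.164 FPKM beside a locus at 0.732 and 0.655. AL355338.1, head to head with PCCA, had 3.49 and 3.39 FPKM, against 5.69 and 7.94 for PCCA. The locus 95 bases from HNRNPL, a splicing factor gene, had 0.698 and 0.819 FPKM, against 88.1 and 91.0. The locus 415 bases from EZH2, the histone methyltransferase of Polycomb complex 2, had 0.992 and 1.21, against 15.5 and 14.1. The loci beside CLN8 (2.89 and 3 FPKM, chromosome 8) and ZFAND2A (1.48 and 1.71, chromosome 7) were among the higher ones, while the level of ZFAND2A went from 25.1 to 16.6.

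The log2 ratios of these 22 loci (knockdown over control, pseudocount 0.1) ran from -0.60 beside SAP30 to 0.44 beside ILRUN with a median of 0.12. None passed the limit. They were picked for a chain assembled in both files; the range was -2.83 to 1.90 over the 74 pairs in which both partners were above 0 in both libraries, and -5.67 to 3.84 over all 108. Over those 74 pairs the log2 ratio of the locus and that of its gene had Pearson's r = 0.16 and Spearman's rho = 0.13. The levels themselves had r = 0.12 and rho = 0.10. Those are descriptions across pairs within 1 pair of libraries, which share depth and processing.

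Differences between the libraries were read by a rule of size: at least 0.5 FPKM in the higher library, a log2 ratio of 1 or more, up or down, with a pseudocount of 0.1, and 95% counting intervals that do not overlap. Chains found in both files had a median log2 ratio of -0.11 (order-statistic interval -0.27 to 0.04), and 125 of 143 stayed within 1 of 0. The median over 1791 gene-overlapping chains was -0.02. Of the 143, 5 passed the rule as higher in the knockdown (3.5%, against 6.09% of gene-overlapping chains) and 9 as lower (6.29%, against 6.2%). The shares of the unannotated chains were thus close to or below those of the background.

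None of these 14 chains lay in a locus that passed the rule in the same direction when all assembled transcripts over its exons were summed. LNCAROD is an example: its shared chain went from 2.01 to 0.630 FPKM with nearly the same length, while the locus went from 1.98 to 2.41. A chain 39637 bases from TACR1 went from 4.35 to 1.48, while its locus went from 2.66 to 4.95. In 7 of the 14 the transcript was at least 1.5 times longer in one file than in the other, as it was in 39 of the 129 chains that did not pass. These chains were picked after their values were seen.

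**Figure D4:**
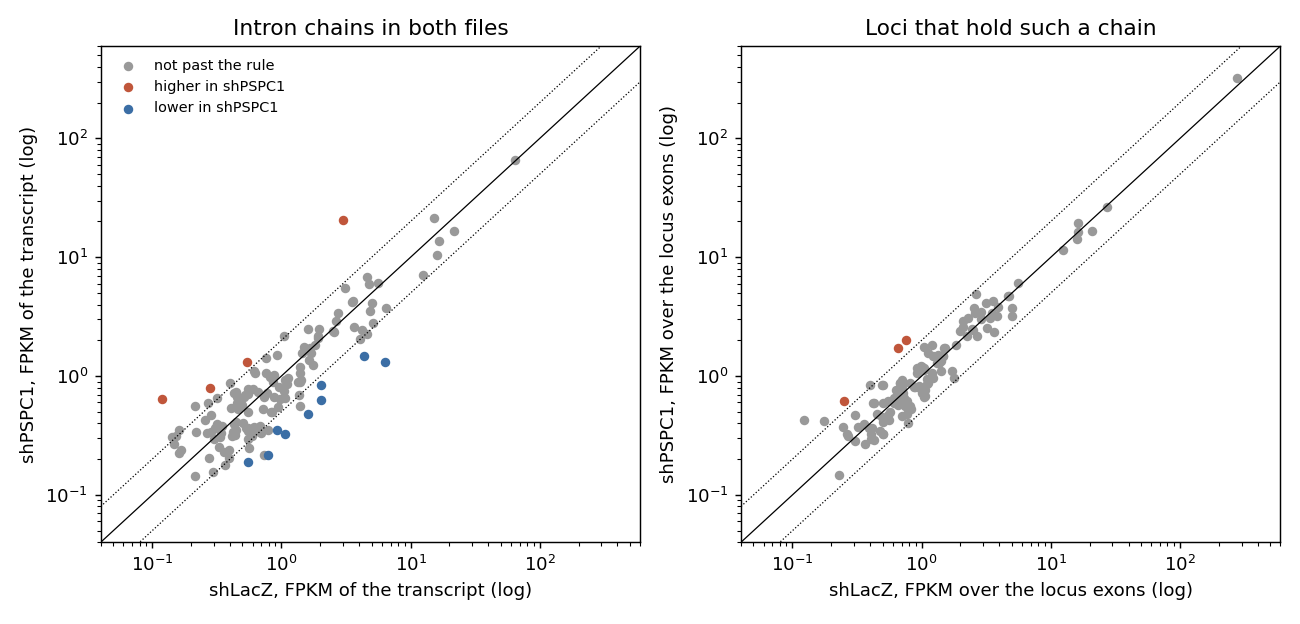
Left, FPKM of intron chains found in both files in the control (horizontal) and the knockdown (vertical), both axes logarithmic, 141 chains above 0 in both. Right, levels over the locus exons for the 129 loci that hold such a chain. The solid line marks equality and the dotted lines a ratio of 2 either way; coloured points passed the rule, 5 higher (1 of them at 0 in the control and not drawn) and 9 lower on the left, 3 higher on the right.

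Over the locus exons, 54 of 725 loci passed as higher in the knockdown (7.45%) and 64 as lower (8.83%). Annotated genes measured in the same way passed in 1.06% and 1.27% of 20473 cases, and those with a mean level in the same middle range as the loci (2065 genes) in 3.29% and 3.15%. The loci were drawn from what was assembled in 1 file or the other, and the genes were not, so the shares of loci and genes are given side by side and no excess is read from them. Of the loci above 0 in both libraries, 18 of 544 passed as higher (3.31%) and 33 as lower (6.07%), beside 0.912% and 1.16% of 18759 genes at any level and 3.13% and 2.94% of 2010 genes in the same middle range of levels. The remaining 67 of the 118 loci that passed had no assembled transcript over their exons in 1 library, 36 of those higher and 31 lower. Of the 129 loci with a chain in both files, 3 passed as higher and 0 as lower.

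Those 3 were 2 named non-coding RNAs and 1 unnamed locus. LINC01273, at chr20:48788999-48795697, 11422 bases upstream of CEBPB (a transcription factor gene of the acute phase response), had levels of 0.252 and 0.615 FPKM, on 64.1 and 178 fragments (log2 ratio 1.02). CEBPB itself stood at 28.6 and 32.6. LINC01186, at chrX:46182108-46187851, had 0.657 and 1.72 FPKM, on 84.0 and 251 fragments (log2 ratio 1.26). Its shared chain alone went the other way, from 1.42 to 0.933 FPKM, with 1080 exon bases in the control and 2683 in the knockdown, a log2 ratio of -0.56 that did not pass the limit. The nearest annotated gene, KRABD4, lay 118772 bases away and stood at 3.29 and 3.18. A locus of 2 exons at chr4:13990189-14005605, 107986 bases upstream of LINC01085, had 0.759 and 1.99 FPKM, on 149 and 396 fragments (log2 ratio 1.29). The shared chains of LINC01273 and of the locus on chromosome 4 were higher in the knockdown too, with log2 ratios of 0.62 and 0.81 that did not pass the limit. When fragments were summed over the whole span of each locus, introns included, the counts were 73.0 and 190 for LINC01273, 175 and 438 for the locus on chromosome 4, and 216 and 384 for LINC01186, whose ratio then fell under the limit.

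A stricter set was taken from the 51 loci that passed and were above 0 in both libraries. It asked that the ratio of estimated fragments pass the limit too and that at most 0.2 of the fragments belong to transcripts that also overlap annotated genes. It held 13 higher and 19 lower loci, of which 3 higher and 0 lower held a chain found in both files. Most of the set entered through spliced transcripts assembled only in the library where the level was higher. Both measures come from the same values, so passing both is no separate support. Annotated genes were not put through this stricter rule, so no background share stands beside these counts. Over the whole span, 9 of the 13 and 10 of the 19 still passed the limit, and 3 lower loci turned in direction. The loci named from this set below were picked after their values were seen.

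**Figure D5:**
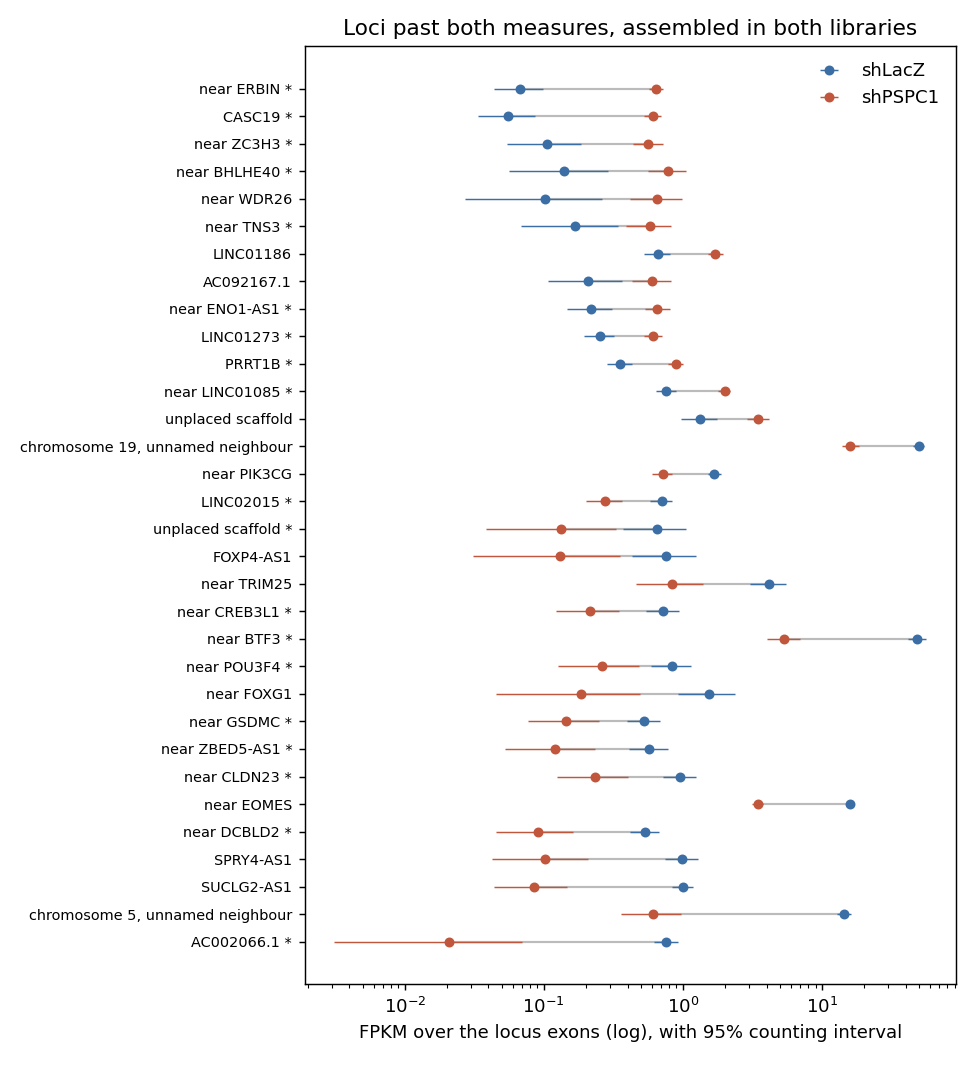
Level over the locus exons (FPKM, logarithmic axis) of the 32 loci of the stricter set in the control (shLacZ) and the knockdown (shPSPC1), with 95% counting intervals, named by their GENCODE 29 match or nearest gene. A star marks the 19 loci that also passed the limit by fragments over the whole span; the 13 at the top are higher in the knockdown and the 19 below are lower.

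Among the higher loci of this set, the locus at chr5:65377311-65387057 began 459 bases downstream of ERBIN, a scaffold protein gene, on the same strand. Its levels were 0.0674 and 0.643 FPKM, on 26 and 291 fragments, and 51.0 and 322 over the whole span. The spliced transcript, assembled in the knockdown only, held 91.7 of those 291 fragments. ERBIN stood at 25.7 and 25.5. CASC19, a non-coding RNA of the chromosome 8 gene desert, had 0.0556 and 0.607 FPKM at chr8:128192517-128202967, on 19.4 and 219 fragments. The nearest annotated transcript, 16661 bases away on the same strand, went the other way, from 2.48 to 1.25 FPKM. The locus at chr9:134420920-134437773 matched 2 introns of PRRT1B and had 0.351 and 0.886 FPKM. A locus 1150 bases upstream of BHLHE40, a clock-linked repressor gene, had 0.141 and 0.782 FPKM, on only 6.88 and 42.6 fragments. Its spliced transcript, assembled in the knockdown only, held 11.4 of those 42.6, while BHLHE40 stood at 26.7 and 24.1. At CASC19 and PRRT1B the spliced transcripts held all the knockdown fragments over the locus exons. All 4 loci also passed over the whole span.

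Among the lower loci, AC002066.1, at chr7:116047050-116139620, started 34 bases head to head from CAV2, a caveolin gene. It had 0.761 FPKM in the control, on 99 fragments in 5 assembled transcripts of up to 6 exons, and 0.0208 in the knockdown, on 2.31 fragments. Over the whole span the fragments were 154 and 52.3, still past the limit, and CAV2 stood at 37.1 and 28.1. A locus at chr3:98636126-98641869, 15592 bases upstream of DCBLD2, had 0.533 and 0.0904 FPKM, on 72.2 and 11.0 fragments, and also passed over the whole span.

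At 2 other head-to-head loci the exons and the span moved in opposite directions. SUCLG2-AS1, at chr3:67705151-67799147, had 1.00 FPKM in the control, on 135 fragments, and 0.0846 in the knockdown, on 12.3. Over its whole span the fragments were 244 and 362. SPRY4-AS1, at chr5:141704726-141756319, had 0.983 and 0.102 FPKM, on 56.0 and 7.36 fragments, while over the span they were 221 and 392. At both loci the spliced transcripts described here were thus assembled in the control only, while other assembled transcripts lay within the span in both files. The strand and splicing of those others were not examined. SUCLG2 stood at 18.3 and 17.1 FPKM and SPRY4 at 0.712 and 0.846. A 4-exon locus at chr5:179894215-179910239, which had 14.4 and 0.612 FPKM over its exons, was the third that turned. At chr3:27673802-27689138, 68729 bases tail to tail from EOMES, the level fell from 15.9 to 3.46 FPKM on 2040 and 457 fragments, but over the span the fragments were 2345 and 1610 and the ratio no longer passed. Whether splicing, transcription or the assembly of reads differed at these loci was not tested.

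The 67 loci with nothing assembled over their exons in 1 library had a median of 30.2 fragments in the library where they were seen if that was the knockdown and 24.0 if it was the control. Lone strandless assembled pieces had a median of 17 and 18 fragments in the control and knockdown files. In 15 of the 67 the other library held pieces elsewhere in the span. Those with 100 or more fragments numbered 8 in the knockdown and 7 in the control.

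Several of the most abundant were chains of many exons. A chain of 8 exons at chr10:37524721-37553890, matching LINC00993 downstream of ANKRD30A, had 2.1 FPKM in the control on 713 fragments. Nothing was assembled over these exons in the knockdown, and over the whole span the fragments were 780 and 75. A chain of 12 exons at chr7:128166221-128271484, matching AC108010.1, had 1.2 FPKM in the control on 591 fragments, with 689 and 136 over the span. The longest chain of all, 17 exons at chr16:15198204-15225382, matched 12 introns of PKD1P6-NPIPP1, a readthrough of pseudogenes of PKD1 and NPIP. It had 3.60 FPKM in the knockdown on 565 fragments, with 155 and 590 over the span. Its level is uncertain in the way given above for SRGAP2C, since reads can be placed on near-identical copies. A 4-exon locus at chr11:65222760-65224452, matching AP000769.1, had 1.65 FPKM in the knockdown on 132 fragments, with none assembled in the control. No fold is given for any of them, since nothing assembled is not a count of 0. They were picked by their fragments after the values were seen.

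The locus with the largest ratio is annotated in 1 of the 2 files. A 9-exon chain at chr17:73894724-73901181 had 17.0 FPKM in the knockdown and no assembled transcript in the control. Its 8 introns are those of MRPL38, a mitochondrial ribosomal protein gene. The control file lists an annotated transcript there and the knockdown file does not. With annotated transcripts counted, the levels were 14.5 and 17.0 FPKM.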

How the data were processed

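The deposited files hold transcripts, each with FPKM, a 95% interval and a coverage computed by the authors and written as text attributes, and a score column that was not used here. Tools named in the submitters' processing notes are Cufflinks 2.1.1, TopHat2 2.0.7 and CASAVA 1.8.2; no source used here gives strandedness, RNA selection or build. The lists, loci and rules were chosen with earlier results of these data known.

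Transcripts overlapping on 1 strand in either file were joined into loci. The level of a locus is the FPKM of every assembled transcript times its exon bases inside the union of locus exons, divided by the length of that union; annotated genes were measured alike from all transcripts. Fragments were estimated from FPKM, length less mean fragment length (162 and 166 bases) and a depth read from the deposited intervals, where 91.3% and 90.7% of 28013 and 34803 lone pieces came out within 0.02 of a whole number. Exact Poisson intervals of fragments cover counting error only. Levels and fragments were summed whatever the strand of the assembled transcript. Ratios of fragments used an offset of 3. The rule of size was checked on simulated loci. These were assembled in full in both libraries, with counting error only and no minimum FPKM. That check says nothing of loci with nothing assembled in 1 library. GENCODE 29 introns were matched by length, strand and flanking genes, with no conversion of coordinates.

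Part of the loci were named by rule. These were the 10 of highest level, up to 10 higher and 10 lower with a chain in both files, the 5 with most exons, the 5 of longest span, and the 3 highest chains of each file alone. Loci named beyond these were picked outside the rule, with their values known. Python 3.11.15, numpy 2.4.6, scipy 1.17.1 and pandas 2.3.3 were used.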

Additional observations from a re-analysis of the deposited data

How the results depend on the processing

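The median ratio of shared chains stayed between -0.12 and -0.05 under all 4 alternatives tried, and head-to-head loci numbered 108 and 156 with limits of 1000 and 10000 bases. Counts of transcripts moved with the definition: with 3 or more exons they were 248 in the control and 212 in the knockdown, and with no annotated gene within 5000 bases 423 and 416. The share of chains in both files was 46.8% and 45.7% for at least 1 shared intron, 41.7% and 38.3% at 1 FPKM or more, and 16.1% and 18.9% with 3 or more exons. Chains called higher numbered 2 with a pseudocount of 1, 8 with 0.01 and 3 with a minimum of 1 FPKM; with a pseudocount of 1, 2 were lower. Loci called higher and lower numbered 92 and 100 from the spliced transcripts alone, 20 and 26 with a pseudocount of 1, 25 and 29 with a minimum of 1 FPKM, 122 and 123 with no minimum, and 32 and 37 without loci within 5000 bases of a gene. Chosen after seeing the data, loci assembled in both libraries gave 18 and 33, the stricter set 13 and 19, and that set over the whole span 9 and 10. Downstream, upstream and tail-to-tail loci numbered 21, 22 and 9 at 1000 bases, and tail-to-tail loci 46 at 10000. Except where the construction itself removes or adds loci, the cause was not tested. No paired analysis was possible because each group has 1 library.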
